A study of Mus musculus with 6 samples.

Results

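The transcript of the tumour suppressor p53 (Trp53) and those of 9 genes that p53 is known to activate were read in lung RNA of mice with and without a full dose of Sgo1. The 10 genes are Trp53, Cdkn1a, Mdm2, Ccng1, Bax, Phlda3, Eda2r, Zmat3, Sesn2 and Aen. They were chosen by name, and all 10 were found among the 25860 genes of the count table by their Entrez Gene IDs. One group of 3 mice carried RAG1-/- (replicates 1, 2 and 3), and the other group of 3 carried RAG1-/-Sgo1-/+ (replicates 4, 5 and 6). Both groups therefore lacked both copies of Rag1, a recombinase gene that developing B and T cells need, and the second group also lacked 1 copy of Sgo1, which encodes shugoshin 1, a protector of cohesion at centromeres. All mice were 12 months old and received no treatment, and the tissue taken was lung that looked normal. Neither loss was limited to a cell type, and the animals came from F2 crosses. The comparison asks how chromosome instability from reduced Sgo1 affects the lung, here through the genes of the p53 response.

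p53 is a transcription factor that is held at a low level by the ubiquitin ligase Mdm2 and accumulates when DNA is damaged, when mitosis fails or when chromosomes are missegregated. It binds paired copies of a short half-site near its targets, and through them it halts the cell cycle, starts apoptosis, or adjusts repair and metabolism. Its activity is set mainly at the level of the protein, so the RNA of its targets is commonly read as the output and that of Trp53 itself says little about it.

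Letters that match the sequence p53 binds were found close to the start of several of these genes. Windows from 250 bases before to 50 bases after the start were taken from RefSeq on GRCm38.p6, and 9 of the 10 genes had an entry (Zmat3 had none). A half-site, a p53 motif of 10 bases that is its own reverse complement, was found without mismatch in the windows of 6 of the 9 genes (66.7%), against 9.55% of 27025 genes with a window. Of the 9 genes, 4 (44.4%) held a pair, defined as 2 adjacent half-sites without spacer, with the core C and G kept in both and at most 3 mismatches, against 1.63% of all genes. A gene that holds a pair may hold it with or without a perfect half-site. The matches below are shown because a known response to p53 is what the 10 genes were chosen for. Each is printed from 5′ to 3′ on the strand of its gene, with the matched bases in capitals, and a match describes letters only.
Trp53 (pair, 3 mismatches): cggaaGGACTTGCCCTTACTTGTTAtggcg
Cdkn1a (pair, 1 mismatch): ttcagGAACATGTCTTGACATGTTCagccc
Ccng1 (pair, 1 mismatch): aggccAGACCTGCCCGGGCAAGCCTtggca
Aen (pair, 3 mismatches): aagccGGGCTTGTCCGGGCAAGGAGcttcc
Mdm2 (half-site): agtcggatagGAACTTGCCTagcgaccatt
Bax (half-site): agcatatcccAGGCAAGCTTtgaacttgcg

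The Trp53 stretch lies at chr11:69580279-69580308 on the plus strand, with the pair starting at position -75 from the start of the gene. In Cdkn1a the stretch lies at chr17:29090923-29090952 on the plus strand, and its pair starts at position -51 from the upstream of 2 annotated starts, which are 2790 bases apart. The Ccng1 stretch is at chr11:40755457-40755486 on the minus strand, with the pair from position -195. In Aen the stretch is at chr7:78895932-78895961 on the plus strand, where the pair begins at position -121 from one annotated start and at position 11 after the other. The Mdm2 stretch lies at chr10:117710925-117710954 on the minus strand, with the half-site from position -186, and that of Bax at chr7:45467080-45467109 on the minus strand, from position -201. In the windows of Phlda3, Eda2r and Sesn2 these letters were not found.

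Library depth and cell content bear on every value that follows. Reads counted on genes ranged from 3205822 to 9366774 per library, and 3 reads, taken as the detection floor, stood for 0.32 to 0.936 CPM (reads scaled to a common total of reads on genes). The 10 genes had between 24 and 1774 reads in every library, so all lay above that floor. The targeted transcript was too rare to check the labels, with 6, 2 and 4 reads of Sgo1 in RAG1-/- and 6, 0 and 2 in RAG1-/-Sgo1-/+, and Rag1 had 8 to 24 reads in every library. The library labelled RAG1-/- replicate 2 held 1853 reads of the immunoglobulin gene Igkc, against 0 to 8 elsewhere, which goes against a genotype without B cells. RAG1-/- replicate 1 alone expressed Xist (7717 reads, at most 8 elsewhere) and had only 2 reads of the Y-linked Ddx3y, so 1 sex was present in a single library of 1 group. Lung epithelial markers were abundant in all libraries, with a summed level of 77247 to 98977 CPM over 8 genes. Among 5 macrophage markers, Chil3 alone made up most of the sum, with 6080 CPM in RAG1-/-Sgo1-/+ replicate 6 against 238 to 651 CPM elsewhere. The other 4 summed to 330 CPM in that library against 93.5 to 137 CPM, with Cd68 and Mrc1 raised there, while Marco (9.98 CPM) and Siglecf (6.24 CPM) lay within the range of the others. The sum of 4 fat cell markers was 163 CPM in RAG1-/- replicate 1 and 21.2 to 31.9 CPM elsewhere. That of 5 T cell markers was 20.4 CPM in RAG1-/- replicate 2, 15.3 CPM in RAG1-/-Sgo1-/+ replicate 6 and 1.71 to 4.63 CPM elsewhere. Both libraries with the higher sums held 2 to 34 reads per gene. In RAG1-/-Sgo1-/+ replicate 6 Cd8a had 12 reads but Cd3d only 2, as in RAG1-/-Sgo1-/+ replicates 4 and 5. Whether these reads came from T cells, which the genotype should lack, was not tested. The sum of 4 neutrophil markers was 70.3 to 116 CPM in RAG1-/- and 22.8 to 56.7 CPM in RAG1-/-Sgo1-/+. For 4 red blood cell genes the sums were 2539 to 6841 CPM and 1950 to 3433 CPM. At an unadjusted P under 0.05, 3 of 4 neutrophil and 3 of 4 red blood cell genes were lower, against 2.52% of all genes. Lower too were 3 of 5 B cell, 2 of 4 fat cell and 1 of 5 macrophage genes. Of 5 macrophage genes 2 and of 8 epithelial genes 1 were higher, against 3.15% of all genes. The part of sex and of cell content in the values below was not tested beyond leaving libraries out. In such bulk tissue, fewer cells of a type and less RNA per cell cannot be told apart.

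No gene of the 10 passed the test of a difference between the genotypes. Of the 10 genes, 0 passed an adjusted P under 0.05 with a difference of at least 2-fold in the quasi-likelihood test of edgeR, which was also so of all 17231 genes tested (0% called). The adjusted P of the 10 genes ran from 0.832 to 0.981. At an unadjusted P under 0.05 the count was 0 of 10 by the quasi-likelihood test (background 5.66%), 0 of 10 by DESeq2 (background 4.03%) and 0 of 10 by the exact test of edgeR (background 4.92%). The fitted difference was above 0 for 7 genes and below 0 for 3, with a median log2 fold change of 0.17 for the 10 genes and 0.13 for the 9 targets, beside 0.03 for all genes tested. For 2 of 10 genes, Bax and Sesn2, all libraries of RAG1-/-Sgo1-/+ lay above all of RAG1-/-. Over all genes tested, groups failed to overlap in 11.8%, with RAG1-/-Sgo1-/+ above in 6.24% and below in 5.54%.

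**Figure D1:**
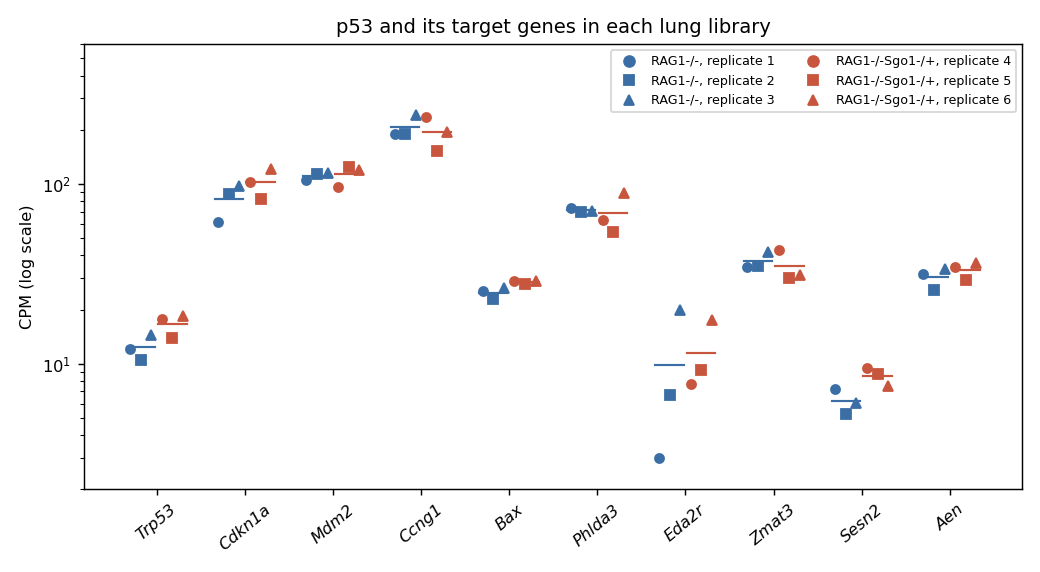
Level of p53 and 9 of its targets in each library, in CPM on a log axis, with 1 point per mouse, RAG1-/- in blue, RAG1-/-Sgo1-/+ in red, and a bar at each group's mean. The groups are apart in Bax and Sesn2 and overlap in the other 8 genes, and Eda2r spreads most, from 2.99 to 19.8 CPM.

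Trp53, the gene of p53 itself, had 113, 52 and 96 reads in RAG1-/-, or 12.1, 10.5 and 14.5 CPM. In RAG1-/-Sgo1-/+ it had 87, 75 and 59 reads, or 17.6, 13.9 and 18.4 CPM. RAG1-/-Sgo1-/+ replicates 4 and 6 lay above every control, while replicate 5 lay below RAG1-/- replicate 3, so the groups overlapped. The mean was 12.4 ± 2.03 CPM in RAG1-/- and 16.6 ± 2.40 CPM in RAG1-/-Sgo1-/+ (SD, n = 3 each). The log2 fold change was 0.42 (SE 0.22, 95% interval -0.07 to 0.90, unadjusted P = 0.0853), the smallest P of the 10 genes. With each library left out in turn it stayed between 0.32 and 0.55.

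Mdm2 encodes the ligase that marks p53 for degradation and is itself raised by p53, which closes a feedback loop. Its level was 105, 113 and 115 CPM in RAG1-/- and 96.2, 124 and 120 CPM in RAG1-/-Sgo1-/+. The lowest and the highest library were both RAG1-/-Sgo1-/+, and the means of 111 ± 5.49 and 114 ± 15.2 CPM (SD, n = 3 each) differed by less than that spread. The log2 fold change of Mdm2 was 0.03 (SE 0.13, 95% interval -0.27 to 0.33, unadjusted P = 0.817), the narrowest interval of the 10 genes. Its sign turned when RAG1-/- replicate 1 or RAG1-/-Sgo1-/+ replicate 5 or 6 was left out (-0.01, -0.04 and -0.01).

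The cell cycle targets were led by Cdkn1a, which encodes p21, the inhibitor of cyclin-dependent kinases through which p53 halts cells. It stood at 61.4, 87.3 and 97.0 CPM in RAG1-/- and at 102, 81.9 and 121 CPM in RAG1-/-Sgo1-/+. The lowest value was that of RAG1-/- replicate 1, the library that expressed Xist, and RAG1-/-Sgo1-/+ replicate 5 lay inside the range of the controls. Cdkn1a had a log2 fold change of 0.31 (SE 0.20, 95% interval -0.13 to 0.75, unadjusted P = 0.145), which fell to 0.14 without RAG1-/- replicate 1 and to 0.17 without RAG1-/-Sgo1-/+ replicate 6. Of its exon bases, 10% (273 bases) are shared with a gene on the opposite strand, AC167363.2, and reads of the pair cannot be told apart with a kit that does not mark strand. Ccng1, which encodes cyclin G1, a cyclin-like protein that acts with a phosphatase on Mdm2, was the most abundant of the 10 genes per length. Its level was 189, 189 and 243 CPM in RAG1-/- and 234, 153 and 194 CPM in RAG1-/-Sgo1-/+, so the second group spanned most of the range of the first and reached below it. Ccng1 had a log2 fold change of -0.10 (SE 0.17, 95% interval -0.48 to 0.29).

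Among the targets that act in cell death, Bax encodes the protein that opens the outer mitochondrial membrane. It had 25.2, 22.8 and 26.2 CPM in RAG1-/- and 28.9, 27.6 and 29.0 CPM in RAG1-/-Sgo1-/+. The groups were apart, but by little, with means of 24.7 ± 1.72 and 28.5 ± 0.781 CPM (SD, n = 3 each) and a two-sided exact permutation P of 0.1, the smallest that 3 against 3 allows. The log2 fold change of 0.20 (SE 0.15, 95% interval -0.13 to 0.53, unadjusted P = 0.199) stayed between 0.15 and 0.24 with each library left out. In the annotation 22.1% of its exon bases (192 bases) belong also to Gm45808 on the same strand, so reads there could be assigned to either gene. Aen encodes a nuclease that degrades DNA in apoptosis, and it had 31.4, 25.7 and 33.6 CPM in RAG1-/- and 34.5, 29.1 and 36.2 CPM in RAG1-/-Sgo1-/+. Its groups overlapped, and the log2 fold change was 0.13 (SE 0.16, 95% interval -0.23 to 0.49).

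Eda2r, a receptor of the tumour necrosis factor family that binds a form of ectodysplasin, was the most variable of the 10 genes. It had 28, 33 and 131 reads in RAG1-/-, or 2.99, 6.67 and 19.8 CPM. In RAG1-/-Sgo1-/+ it had 38, 50 and 56 reads, or 7.68, 9.26 and 17.5 CPM. The highest and the lowest library were both controls, 6.63-fold apart. The lowest was RAG1-/- replicate 1, the library that expressed Xist, and the part of sex in this value was not tested. The log2 fold change of Eda2r was 0.20 (SE 0.59, 95% interval -1.12 to 1.53, unadjusted P = 0.738), and single libraries decided it. Without RAG1-/- replicate 3 it was 1.27, with an unadjusted P of 0.0302 in the edgeR test, while it was -0.26 without RAG1-/- replicate 1 and -0.20 without RAG1-/-Sgo1-/+ replicate 6.

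Phlda3, whose product holds back Akt signalling at the membrane, stood at 73.5, 69.5 and 70.8 CPM in RAG1-/- and at 62.6, 54.3 and 89.2 CPM in RAG1-/-Sgo1-/+. The controls lay close together and the RAG1-/-Sgo1-/+ libraries on both sides of them, with replicate 6 highest. Its log2 fold change was -0.06 (SE 0.18, 95% interval -0.45 to 0.33), and it was -0.29 without RAG1-/-Sgo1-/+ replicate 6 and 0.09 without replicate 5. Zmat3, a zinc finger protein that binds RNA and acts in splicing, had 34.4, 34.8 and 41.8 CPM in RAG1-/- and 42.8, 30.0 and 31.2 CPM in RAG1-/-Sgo1-/+. Here 2 of the 3 RAG1-/-Sgo1-/+ libraries lay below every control and the third above every control. Zmat3 had a log2 fold change of -0.09 (95% interval -0.48 to 0.30).

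Sesn2, a sestrin that restrains mTORC1 and limits oxidative damage, had 68, 26 and 40 reads in RAG1-/-, or 7.26, 5.25 and 6.05 CPM. RAG1-/-Sgo1-/+ had 47, 47 and 24 reads, or 9.49, 8.71 and 7.49 CPM. The lowest RAG1-/-Sgo1-/+ library lay just above the highest control, and the exact permutation P was 0.1, again the smallest possible. Sesn2 had the largest fitted log2 fold change of the 10 genes, 0.46 (SE 0.28, 95% interval -0.15 to 1.08, unadjusted P = 0.125). It stayed between 0.36 and 0.60 with each library left out.

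The intervals state what these 6 libraries could show. All 10 included 0. Those of 8 genes lay wholly within a 2-fold difference in either direction, and those of 2 genes, Eda2r and Sesn2, reached it. Leaving out the library with the B cell markers and the one with the raised Chil3, RAG1-/- replicate 2 and RAG1-/-Sgo1-/+ replicate 6, moved the median log2 fold change of the 10 genes from 0.17 to -0.01. Without that pair Trp53 was at 0.25, Cdkn1a at 0.22, Bax at 0.14 and Sesn2 at 0.44, while Eda2r was at -0.40 and Aen at -0.03. Without RAG1-/- replicate 1, which stood apart by Xist and by its fat cell markers, the median was 0.06.

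**Figure D2:**
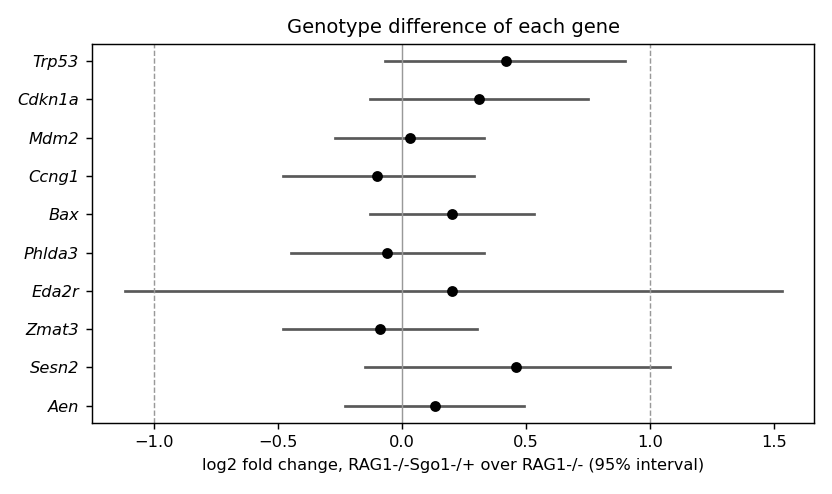
Log2 fold change of each gene, RAG1-/-Sgo1-/+ over RAG1-/-, from the edgeR fit, with its 95% interval as a line and 2-fold differences dashed. All 10 intervals cross 0, and those of Eda2r (-1.12 to 1.53) and Sesn2 (-0.15 to 1.08) also cross a dashed line.

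Compared per kilobase of exon, the genes fell into a higher and a lower tier. Over all 6 libraries the level in CPM per kilobase was 57.1 ± 9.44 for Ccng1, 48.8 ± 8.15 for Phlda3, 35.7 ± 3.29 for Mdm2, 33.8 ± 7.41 for Cdkn1a and 30.7 ± 2.75 for Bax (SD, n = 6). Trp53 followed at 7.76 ± 1.64, then Aen at 6.17 ± 0.754, Zmat3 at 4.59 ± 0.686, Eda2r at 2.22 ± 1.37 and Sesn2 at 2.12 ± 0.456 CPM per kilobase (SD, n = 6). Bax and Trp53 were the only neighbours in this order whose ranges did not overlap, with the lowest Bax value at 26.3 and the highest Trp53 value at 9.85 CPM per kilobase. The lengths are those of GENCODE exons on a later build than the counts.

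The genes also differed in how much they varied among mice of 1 genotype. The SD of log2 CPM within groups was 1.06 for Eda2r, 0.32 for Cdkn1a, 0.26 for Ccng1 and for Phlda3, 0.23 for Trp53 and for Zmat3, 0.21 for Sesn2, 0.19 for Aen, 0.15 for Mdm2 and 0.08 for Bax. Relative to the SD that counting reads alone would give, the spread of Ccng1 was 5.8 times, that of Eda2r 4.86 times and that of Cdkn1a 4.81 times as large. For Bax the ratio was 0.631 and for Sesn2 0.868, so the spread among mice of these genes was no larger than counting error. Mates of a read pair may have been counted separately, since 63.5% to 69% of counts above 0 were even numbers, and the counting error would then be larger than assumed.

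The targets were also compared library by library. Taking each gene's log2 CPM minus its own mean over the 6 libraries, the mean over the 9 targets was -0.26, -0.17 and 0.19 in the RAG1-/- libraries, against 0.09, -0.08 and 0.23 in the libraries of RAG1-/-Sgo1-/+. Of the 9 targets, 2, 2 and 7 lay above their own mean in the RAG1-/- libraries and 6, 4 and 7 in the RAG1-/-Sgo1-/+ libraries. RAG1-/- replicate 3 thus stood with the higher libraries and RAG1-/-Sgo1-/+ replicate 5 nearer the lower ones. Without Eda2r the control libraries had means of -0.09, -0.14 and 0.07, and those of RAG1-/-Sgo1-/+ had 0.12, -0.09 and 0.13, so the 2 groups overlapped either way.

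**Figure D3:**
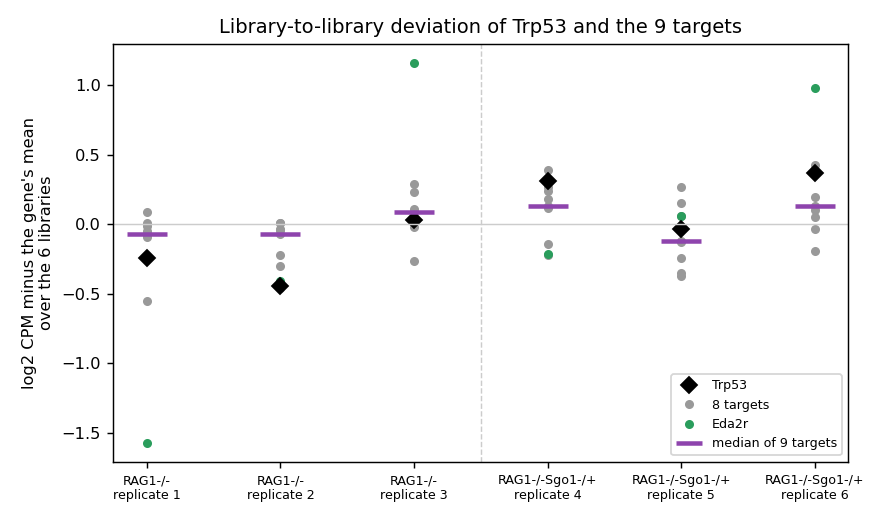
Deviation of log2 CPM from each gene's mean over the 6 libraries, for Trp53 (black diamonds), Eda2r (green), the other 8 targets (grey) and the median of the 9 targets (purple bars). The median is at or below -0.07 in RAG1-/- replicates 1 and 2 and in RAG1-/-Sgo1-/+ replicate 5, and at 0.09 to 0.13 in the other 3 libraries.

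Log2 CPM of Trp53 was set against that of each target across the 6 libraries, in 9 comparisons with exact permutation tests and Benjamini-Hochberg adjustment over them. Bax had the highest Pearson's r, 0.95 (exact permutation P = 0.00417, adjusted 0.0375), with Spearman's rho = 0.94 (exact permutation P = 0.0167, adjusted 0.075). With the 2 libraries farthest from the Trp53 median left out, r was 0.88. Aen had r = 0.89 (exact permutation P = 0.0181, adjusted 0.0812) and rho = 0.94 (exact permutation P = 0.0167, adjusted 0.075), and r fell to 0.63 without the 2 farthest libraries. Cdkn1a had r = 0.72 (adjusted exact permutation P = 0.288) and rho = 0.83 (adjusted 0.175). For the other 6 targets r lay between -0.07, for Mdm2, and 0.65, for Sesn2, with adjusted exact permutation P from 0.372 to 0.901. Only the Pearson value of Bax passed the adjustment, and it pools genotypes whose Bax levels do not overlap. With both genes centred on their group means, r was 0.89 for Bax and 0.96 for Aen. Within groups the SD of log2 CPM was 0.08 for Bax, 0.19 for Aen and 0.23 for Trp53. Counting reads alone would give 0.12, 0.11 and 0.17, so the spread of Bax set against Trp53 here was no larger than counting error. Each had an exact permutation P of 0.0278, the smallest that 36 arrangements within genotypes allow, and 0.125 after adjustment over the 9 targets. To pass that adjustment, several more targets would have had to reach the same smallest P. The adjusted test within genotypes therefore could not decide either relation. This form of the test was added after the data were seen.

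**Figure D4:**
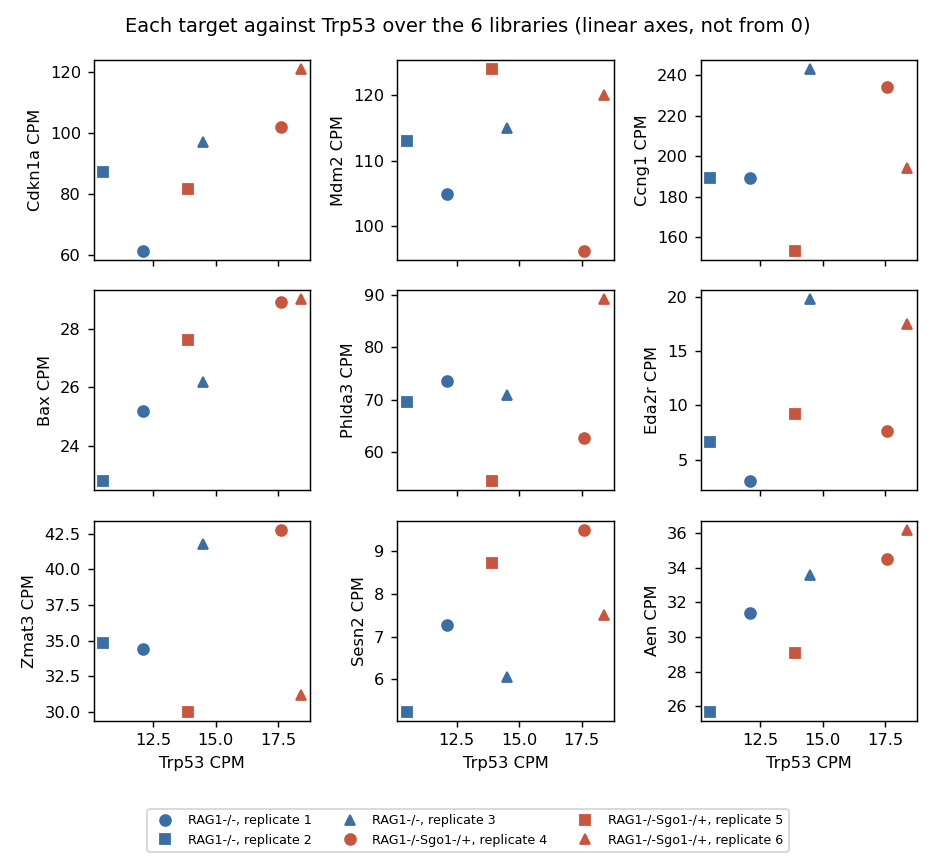
CPM of each of the 9 targets against CPM of Trp53, with 1 point per library on linear axes that do not start at 0, RAG1-/- in blue and RAG1-/-Sgo1-/+ in red. Pearson's r of log2 CPM with Trp53 is 0.95 for Bax, 0.89 for Aen and -0.07 for Mdm2, and Spearman's rho is 0.94 for both Bax and Aen.

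The wider pathway was read from 6 lists of textbook members, 80 genes in all, of which 78 were tested. At an unadjusted P under 0.05, 5 were higher and 3 lower in RAG1-/-Sgo1-/+, against a background of 3.15% higher and 2.52% lower over all genes, and 0 passed the adjusted threshold by edgeR. Their median log2 fold change was 0.07. Groups lay apart in 7 of these genes with RAG1-/-Sgo1-/+ above and in 4 with it below, against 6.24% and 5.54% of all genes.

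The list of p53 regulators holds kinases, ligases and acetylases that set its stability and activity, along with other regulators and relatives of p53. Of 21 tested, 2 had an unadjusted P under 0.05 with a higher level (background 3.15%) and 1 with a lower level (background 2.52%). The median log2 fold change was 0.05. Hipk2, a kinase that phosphorylates p53, had 3.84, 2.42 and 6.05 CPM in RAG1-/- and 8.69, 7.41 and 13.1 CPM in RAG1-/-Sgo1-/+ (log2 fold change 1.21, SE 0.39, unadjusted P = 0.0111, adjusted 0.832 by edgeR). All RAG1-/-Sgo1-/+ libraries lay above all controls, at 12 to 43 reads per library. Crebbp, the acetyltransferase CBP, had a log2 fold change of 0.53 (unadjusted P = 0.0385) and Sirt1, a deacetylase of p53, one of -0.33 (unadjusted P = 0.0326), both with the groups apart. Of 14 alternatives in scaling, filter, test or libraries, 6 took the unadjusted P of Crebbp above 0.05, 6 that of Sirt1 and 1 that of Hipk2, which was at 0.71 without RAG1-/- replicate 2 and RAG1-/-Sgo1-/+ replicate 6. Atm, the kinase that answers DNA breaks, was at -0.18 (SE 0.15) and Mdm4, the partner of Mdm2, at 0.23 (SE 0.18).

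Targets that halt the cell cycle numbered 11, and 0 had an unadjusted P under 0.05 by edgeR. Their median log2 fold change was 0.30, with 6 above 0 and 5 below, and a range from -0.65 to 0.72. Both ends came from genes with few reads, Trp53cor1 (0 to 6 reads, SE 1.08) and Gdf15 (4 to 32 reads, SE 0.75). Among targets with more reads, Btg2 was at -0.35 (SE 0.22) and Plk2 at -0.28 (SE 0.17), while Sfn was at 0.39 (SE 0.19). Gadd45a, which inhibits Cdk1, was at -0.29 (SE 0.16). Downstream of p21, the cell cycle genes that p53 lowers through the DREAM complex gave 0 of 10 tested, with a median of 0.20. Mki67, the marker of proliferating cells, was at 0.31 (SE 0.36), with its highest level, 34.3 CPM, in RAG1-/-Sgo1-/+ replicate 6, the library with the raised Chil3, and at -0.13 without that library.

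Of 14 further targets that act in cell death, 2 had an unadjusted P under 0.05, both higher in RAG1-/-Sgo1-/+ (background 3.15% higher). The median was 0.06. Tnfrsf10b, the death receptor for TRAIL, had 7.58, 6.06 and 6.36 CPM in RAG1-/- and 9.70, 11.5 and 10.6 CPM in RAG1-/-Sgo1-/+ (log2 fold change 0.66, unadjusted P = 0.0253), with the groups apart. Trp53i11 was at 0.47 (unadjusted P = 0.0316), with groups that overlapped. Under the same 14 alternatives Tnfrsf10b lost the threshold in 5, DESeq2 among them (unadjusted P = 0.0615), and Trp53i11 in 4. Bbc3, which encodes Puma, was at 0.05 (SE 0.19), Pmaip1, which encodes Noxa, at 0.18 (SE 0.17), and the death receptor gene Fas at -0.27 (SE 0.14). Among 9 targets in DNA repair 0 had an unadjusted P under 0.05, with a median of 0.04, and Ddb2, a sensor of ultraviolet damage, was at 0.59 (SE 0.30).

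Targets in metabolism and redox control, 13 in all, had 1 gene higher and 2 lower at an unadjusted P under 0.05. The background was 3.15% higher and 2.52% lower, and the median of the 13 was 0.11. Sesn1, the sestrin most closely related to Sesn2, had 59.6, 80.0 and 61.6 CPM in RAG1-/- and 42.2, 48.7 and 41.5 CPM in RAG1-/-Sgo1-/+. All RAG1-/-Sgo1-/+ libraries lay below all controls, opposite to the order of the groups in Sesn2. The log2 fold change of Sesn1 was -0.60 (SE 0.15, unadjusted P = 0.00293, adjusted 0.832 by edgeR), the lowest P among the pathway genes named, and its unadjusted P ranged from 0.00109 to 0.0283 over the 14 alternatives. Lpin1, a phosphatidate phosphatase, was at -0.49 (unadjusted P = 0.0123) and Sco2, an assembly factor of cytochrome c oxidase, at 0.64 (unadjusted P = 0.0304), both with the groups apart. Sco2 lost the threshold in 5 of 14 alternatives, with DESeq2 (unadjusted P = 0.0579) and without RAG1-/-Sgo1-/+ replicate 6 (0.46) among them, and Lpin1 in 1.

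**Figure D5:**
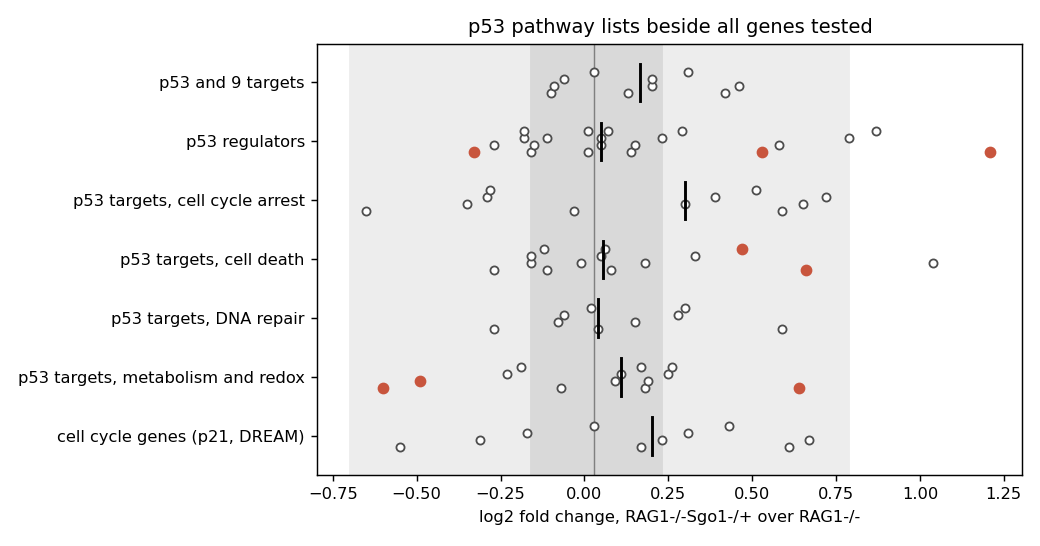
Log2 fold change, RAG1-/-Sgo1-/+ over RAG1-/-, of p53 with its 9 targets and of the 6 pathway lists, with 1 point per gene, filled red where the unadjusted P was under 0.05, and a bar at each list's median. The grey bands hold the middle 50% (-0.16 to 0.23) and 90% (-0.70 to 0.79) of all genes tested, and all 10 p53 genes lie inside the wider band.

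Other genes that respond to handling, hormones or time of day were read beside the targets, since several p53 targets also answer to such cues. Fos, an immediate early gene, had 93.1, 104 and 123 CPM in RAG1-/- and 22.2, 34.1 and 76.7 CPM in RAG1-/-Sgo1-/+ (log2 fold change -1.29, unadjusted P = 0.0047). Egr1, of the same list, was at -1.62 (unadjusted P = 0.0178), and of the 7 immediate early genes 3 had an unadjusted P under 0.05, all lower (background 2.52%). With each library left out Fos ran from -1.92 to -0.96 and Egr1 from -2.69, without RAG1-/-Sgo1-/+ replicate 6, to -1.13, without RAG1-/- replicate 3. Egr1 lost the threshold in 3 of 14 alternatives, and Fos in 0. Of 9 glucocorticoid and clock genes, 1 had an unadjusted P under 0.05 (background 5.66%). This was Fkbp5, at -0.41 (unadjusted P = 0.038), and Per2 was at 0.39 (unadjusted P = 0.0565). Fkbp5 lost the threshold in 7 of 14 alternatives and Per2 passed it in 4. None of these passed the adjusted threshold by edgeR, and their part in the values of Sesn1 or the other targets was not tested.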

How the data were processed

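RNA was extracted with Trizol from the lungs of 6 mice, 1 library each, prepared with the TruSeq V2 kit and sequenced on a MiSeq. Read counts per gene, as deposited, are whole numbers that the authors made with GeneSifter on mouse Build 37.2 and did not normalize. The submitters' processing notes name BWA and edgeR without versions. Each library appears in 2 columns of identical values, and 1 was used. Read counts were scaled to CPM by each library's total on genes (3205822 to 9366774). A deposited list of the authors' own comparison, with their fold changes and p-values, was not used.

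The quasi-likelihood method of edgeR 4.0.16 (R 4.3.3) was run on the 17231 genes whose counts summed to 10 or more, library size being the total count, with Benjamini-Hochberg adjustment over all of them. Fold changes use a prior count of 0.125. The SE is the log2 fold change over the square root of F. Exact permutation tests of group means of CPM are two-sided. The labels do not say whether libraries come from separate litters. P values cover the spread between these mice only, and in edgeR the spread of each gene is moderated by that of all genes tested. The 3-count floor and counting SD cover counting error only. The workflow was also run on simulated counts with the same dispersion for every gene. The genes here differ in spread, so that run does not show how well the workflow detects differences in these data. Alternatives were TMM and DESeq2 size factors, no filter, filterByExpr, the exact test of edgeR, DESeq2 1.42.0, halved counts, and libraries left out.

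Symbols were matched by Entrez Gene ID for 24048 genes (93%). Promoter windows are from RefSeq on GRCm38.p6 and exon lengths from GENCODE on GRCm38. They were joined to the counts by gene, not by position. The genes and lists were chosen with earlier results of these data known. The text names all 10 genes, every pathway gene with an unadjusted P under 0.05 and fixed examples (Atm, Mdm4, Gadd45a, Bbc3, Pmaip1, Fas, Ddb2, Sesn1 and Mki67). It also names the 2 genes of lowest P in each of the lists of immediate early genes and of glucocorticoid and clock genes, and genes that check the libraries. Trp53cor1, Gdf15, Btg2, Plk2 and Sfn were named after their values were seen.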

Additional observations from a re-analysis of the deposited data

How the results depend on the processing

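Scaling by TMM or DESeq2 size factors, the filters, halved counts, the edgeR exact test and DESeq2 turned the direction of 0 of the 10 p53 genes. Libraries mattered more. The count of genes at an adjusted P under 0.05 and 2-fold was 1 with DESeq2 (Awat1) and 0 to 1 with each library left out (H2-K1, without RAG1-/-Sgo1-/+ replicate 5), both named after their values were seen. The count at an unadjusted P under 0.05 ran from 571 (without RAG1-/- replicate 3) to 1420 with each library left out, was 593 without RAG1-/- replicate 2, and was 611 with RAG1-/- replicate 2 and RAG1-/-Sgo1-/+ replicate 6 both left out. With each library left out, 0 to 1 of the 10 p53 genes had an unadjusted P under 0.05 (Eda2r, without RAG1-/- replicate 3), and their median log2 fold change ran from 0.03 to 0.23. It was -0.01 without both libraries, where Eda2r (-0.40) and Aen (-0.03) turned sign. With each library left out, sign also turned in Mdm2 (-0.04 to 0.14), Ccng1 (-0.26 to 0.05), Phlda3 (-0.29 to 0.09), Eda2r (-0.26 to 1.27), Zmat3 (-0.27 to 0.01), Bbc3 (-0.07 to 0.17) and Mki67 (-0.13 to 0.63). Of the other pathway genes at an unadjusted P under 0.05, Sesn1 alone kept it under all 14 alternatives, while Crebbp and Sirt1 lost it in 6 each, Tnfrsf10b and Sco2 in 5 each, Trp53i11 in 4, and Hipk2 and Lpin1 in 1 each. Gadd45a passed it in 2, and Fas and Ddb2 in 1 each. Within genotypes the relation of Trp53 with Bax had the smallest exact permutation P possible, 0.0278 (adjusted 0.125), so the adjusted test could not decide it. The spread of Bax within genotypes was also no larger than counting error. The cause of these shifts between settings was not tested. With 1 sample removed, the spread rests on 5 libraries. An interval as wide as that of Eda2r (-1.12 to 1.53) holds 2-fold differences in both directions, so at this number of mice it excludes neither. No paired analysis was run, because the labels give no pairing of mice between the groups.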
